A study of Mus musculus with 34 samples.

Results

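The platelet-derived growth factor (PDGF) family was followed in mouse liver through 6 genes, the ligand genes Pdgfc, Pdgfa, Pdgfb and Pdgfd and the receptor genes Pdgfra and Pdgfrb. Their 14 probe sets are those with 1 of these symbols and no other, among 45037 probe sets that are not controls. Each gene is given by its probe set of highest mean signal over the 34 arrays, and the other 8 probe sets are described after it. All 6 genes passed the filter on dim probe sets and belong to the 13099 genes tested, out of 18193 genes with an unambiguous symbol.

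RNA was measured on Affymetrix mouse arrays, with 1 array per sample, in Pdgf-c Tg mice, which carry a transgene of the ligand PDGF-C, and in wild-type (WT) mice. At week 48 the arrays covered 5 tumours and 5 livers of Pdgf-c Tg mice on the basal diet. They also covered 5 livers of Pdgf-c Tg mice fed 0.06% peretinoin (an acyclic retinoid) and 4 livers of WT mice. At week 20 they covered 5 livers of Pdgf-c Tg mice on 0.06% peretinoin, 5 of Pdgf-c Tg mice on the basal diet and 5 of WT mice. Diets started after weaning at week 4, the WT strain was C57/B6, and every WT array came from the basal diet. The study looked at liver fibrosis at week 20 and at liver tumours at week 48. The promoter that drives the transgene and its coding sequence are not given in the sources used here. The labels number the replicates without saying that each is a separate mouse, so p-values measure the spread between these samples. Nor do they give which tumours, if any, share a mouse with a liver sample.

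Array medians ranged from 71.5 to 95.7 at a common scale. At week 48 they were 71.5 to 77.5 in peretinoin-fed Tg liver, all below the 77.9 to 82.6 of Tg liver on the basal diet. The summed signal of 7 hepatocyte markers was between 161914 and 263153 on all 34 arrays, and 5 arrays (WT week 48 replicate 4, Tg week 20 replicate 5, Tg week 48 replicate 4, and peretinoin-fed Tg week 20 replicate 5 and week 48 replicate 1) also carried skeletal muscle or pancreatic transcripts at least 3 log2 units above the median array. Without those 5 arrays the 5 transgene calls of week 20 and the 5 of week 48 were still 5 each.

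PDGF ligands are secreted dimers that bind receptor tyrosine kinases on mesenchymal cells. The alpha receptor binds A, B and C chains, and the beta receptor binds B and D chains. PDGF-C and PDGF-D are secreted in a latent form that proteases outside the cell activate, whereas PDGF-A and PDGF-B are processed inside it. In liver, hepatic stellate cells and fibroblasts are the best known carriers of the receptors, and PDGF is a mitogen for them during fibrosis.

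Promoter windows from RefSeq (GRCm38.p6, 250 bases before to 50 after 1 annotated start per gene) were matched for 4 of the 6 genes. They are shown for Pdgfra, whose brightest probe set differed most between Tg and WT liver among those of the 6 genes, and for Pdgfd, the ligand whose log2 signal followed it most closely (Pearson r = 0.87 over 34 arrays and 0.65 within groups, as a description over arrays that share their groups). The Pdgfra window is chr5:75152001-75152300 and the Pdgfd window chr9:6168236-6168535, both on the plus strand. The start used for the window lies 929 bases inside the annotated gene for Pdgfra and 123 bases inside it for Pdgfd, so neither window surrounds the outermost annotated start of its gene. Capitals mark matches to 3 motifs searched on both strands, the TATA box TATAAA, the GC box GGGCGG and the AP-1 motif TGANTCA; no matches overlapped.
Pdgfra: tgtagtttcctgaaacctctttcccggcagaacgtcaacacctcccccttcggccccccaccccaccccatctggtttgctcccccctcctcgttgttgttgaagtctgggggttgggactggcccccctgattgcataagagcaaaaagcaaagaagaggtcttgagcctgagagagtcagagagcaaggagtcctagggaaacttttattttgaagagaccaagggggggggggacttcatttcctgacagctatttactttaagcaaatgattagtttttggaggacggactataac
Pdgfd: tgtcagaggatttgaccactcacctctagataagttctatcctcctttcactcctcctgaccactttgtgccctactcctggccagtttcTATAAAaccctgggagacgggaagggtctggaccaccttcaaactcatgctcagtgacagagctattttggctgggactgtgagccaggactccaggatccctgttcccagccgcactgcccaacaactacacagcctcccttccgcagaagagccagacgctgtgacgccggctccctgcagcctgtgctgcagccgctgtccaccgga
The Pdgfd window held 1 match, TATAAA at position 91 counted from its first base, and the Pdgfra window held 0 matches to the 3 motifs. Of all 32851 promoters of the same length in the table, 13.6% held TATAAA, 35.7% GGGCGG and 7.81% TGANTCA. These letters describe the windows only.

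Both receptor genes and the ligand genes Pdgfb and Pdgfd were higher in Pdgf-c Tg than in WT liver at week 20 and at week 48, while Pdgfc itself passed the test only at week 48 and Pdgfa only at week 20. At week 20, 5 of the 6 genes rose, where 15.8% of all tested genes were called higher and 7.87% lower, and the groups did not overlap for 5 of them, where 16.1% of genes did not overlap. At week 48, 5 of the 6 rose, where 14.2% of genes were called higher and 6.58% lower, and 4 did not overlap, where 21.4% of genes did not. A call is a Benjamini-Hochberg adjusted p under 0.05 from limma over all 13099 genes, and changes are differences of log2(signal + 16) with moderated standard errors. In whole tissue, more cells of a type and more RNA per cell cannot be told apart.

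**Figure D1:**
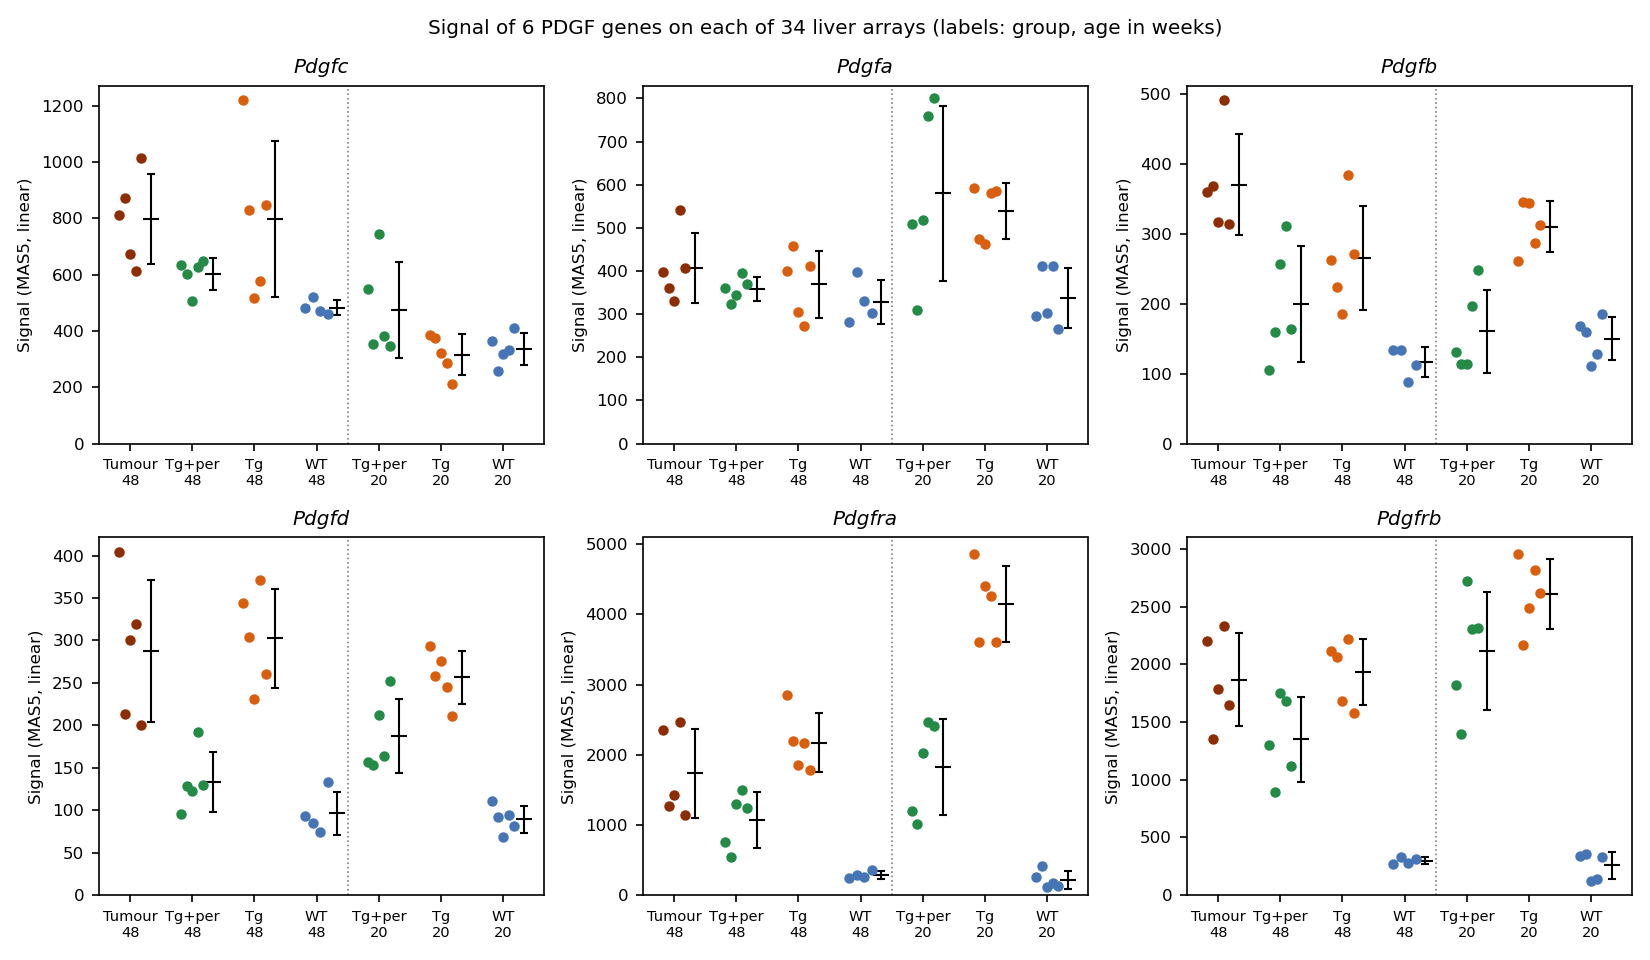
Signal (MAS5, linear) of each of the 6 genes on each array (points) by group, with the age in weeks under the group and the mean and SD as bars beside the points; Tg+per is Pdgf-c Tg on peretinoin. Pdgfra runs from 3603.9 to 4857.3 in Tg liver at week 20, against 109 to 407.9 in WT liver, while Pdgfc overlaps between Tg and WT liver at week 20.

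Pdgfc, the gene the transgene is named for, gave signals of 386.3, 376, 321.1, 284.1 and 210 in Tg liver at week 20, against 362.5, 258.9, 317.2, 331.9 and 411.7 in WT liver. The groups covered each other, with a difference of -0.10 ± 0.20 log2 units and a 95% interval of -0.51 to 0.30 (limma adjusted p = 0.757). At week 48 the signals were 1218.8, 828.5, 517.2, 578.2 and 846.2 in Tg liver, against 481.2, 518.9, 469.1 and 458.2 in WT liver. Here 4 of the 5 Tg arrays lay above the highest WT array, and the difference of 0.65 ± 0.21 log2 units was called (limma adjusted p = 0.0272). That call was lost with 6 of 9 arrays left out in turn (Tg replicates 1, 2 and 5 and WT replicates 1, 3 and 4), with 0.48 log2 units and an adjusted p of 0.110 without Tg replicate 1, the highest array. It was also lost with quantile normalization (0.56 log2 units, adjusted p = 0.0648), with the mean of both probe sets (0.57, adjusted p = 0.0825) and with the compared groups alone (0.65, adjusted p = 0.0504). Whether the 2 Pdgfc probe sets reach the RNA of the transgene was not tested.

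Pdgfa, which codes for the A chain, gave 592.4, 474.4, 463.4, 581.7 and 585.2 in Tg liver at week 20, against 295.3, 411.7, 303.4, 412.2 and 264.7 in WT liver. The groups did not overlap, and Pdgfa rose by 0.67 ± 0.18 log2 units (limma adjusted p = 0.00773). At week 48 its signals ran from 272.1 to 456.8 in Tg liver and from 280.8 to 396.4 in WT liver, a difference of 0.15 ± 0.19 (limma adjusted p = 0.633). The week 20 call was lost with quantile normalization (0.47, adjusted p = 0.0509) and with the mean of both Pdgfa probe sets (0.29, adjusted p = 0.225).

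Pdgfb, the B chain, which binds both receptors, gave 261, 345.1, 343.5, 286.1 and 312.7 in Tg liver at week 20, against 167.5, 159.3, 111, 127.3 and 185.1 in WT liver. At week 48 it gave 262.9, 223.8, 185.4, 384.1 and 271.4 in Tg liver, against 133.7, 133.7, 88.1 and 111.9 in WT liver. Every Tg array lay above every WT array at both ages, by 0.98 ± 0.22 log2 units at week 20 (limma adjusted p = 0.00141) and 1.06 ± 0.24 at week 48 (limma adjusted p = 0.00132).

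Pdgfd, the D chain, a ligand of the beta receptor, was the ligand with the largest difference at both ages. It gave 293.2, 257.9, 275.8, 244.6 and 211 in Tg liver at week 20, against 111.3, 91.9, 68.7, 93.8 and 81.1 in WT liver. At week 48 the values were 344.4, 304.1, 231.4, 371.6 and 259.9 in Tg liver, against 93.1, 85.1, 74.8 and 132.8 in WT liver. The groups stood apart at both ages, and Pdgfd rose by 1.38 ± 0.19 log2 units, 2.60-fold, at week 20 (limma adjusted p = 1.24e-06) and by 1.51 ± 0.20, 2.84-fold, at week 48 (limma adjusted p = 1.48e-06).

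Pdgfra, the alpha receptor, gave 4857.3, 3603.9, 4398.2, 4257.1 and 3606.4 in Tg liver at week 20, against 257.5, 407.9, 109, 168.5 and 131 in WT liver. It rose by 4.31 ± 0.29 log2 units, 19.8-fold (limma adjusted p = 2.07e-12), a difference exceeded in size by 0.0229% of the tested genes. At week 48 it gave 2849.8, 2196.4, 1860, 2170.1 and 1787.5 in Tg liver, against 236.5, 288.6, 262.6 and 358.5 in WT liver. The lowest Tg array was far above the highest WT array at each age, and the week 48 rise was 2.85 ± 0.31 log2 units, 7.21-fold (limma adjusted p = 6.94e-08). The size depends on the probe set: the second Pdgfra probe set rose by 2.97 ± 0.29 log2 units at week 20 and 1.55 ± 0.31 at week 48, and the dimmest by 0.94 ± 0.28 and 1.11 ± 0.30.

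Pdgfrb, the beta receptor, gave 2958.3, 2172, 2485.7, 2814.7 and 2622.7 in Tg liver at week 20, against 339, 354.8, 118.3, 142.8 and 329.9 in WT liver. At week 48 it gave 2116.5, 2064.8, 1679.1, 2222.9 and 1574.7 in Tg liver, against 271.9, 331.1, 273.4 and 314.4 in WT liver. The groups were again far apart, with a rise of 3.39 ± 0.23 log2 units, 10.5-fold, at week 20 (limma adjusted p = 2.07e-12) and 2.63 ± 0.24, 6.17-fold, at week 48 (limma adjusted p = 4.74e-09). Both receptor calls held with each array left out in turn at both ages: at week 20 Pdgfra ranged from 4.13 to 4.57 and Pdgfrb from 3.16 to 3.53 log2 units. With the mean of the probe sets the rises were 3.64 for Pdgfra and 3.43 for Pdgfrb at week 20, and 2.20 for Pdgfra and 2.86 for Pdgfrb at week 48, so the order of the receptors at week 48 was the opposite one.

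**Figure D2:**
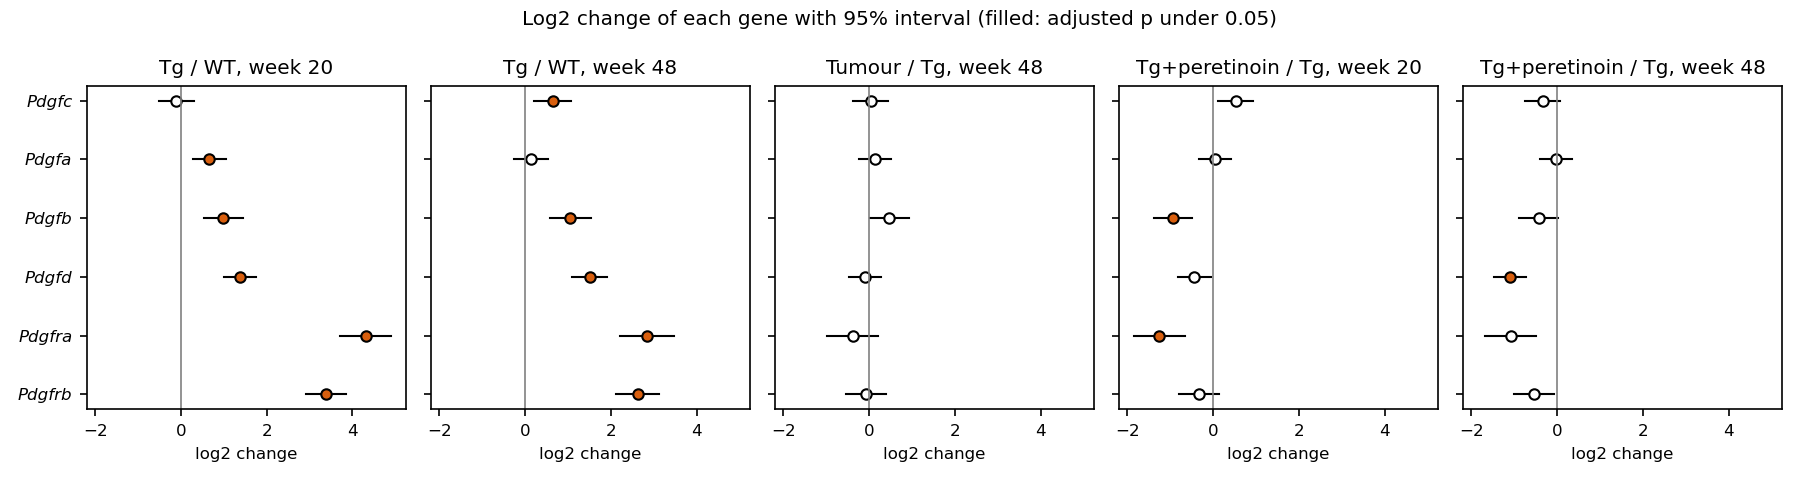
Log2 change (points) with its 95% interval (lines) for the 6 genes in the 5 main comparisons, each named as numerator over denominator; filled points have a limma adjusted p under 0.05. The receptors stand at 4.31 and 3.39 for Tg over WT at week 20, all 6 points are open for tumour over Tg liver, and the filled points of the peretinoin panels are below 0.

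The transgene difference was smaller at week 48 than at week 20 by 1.46 ± 0.42 log2 units for Pdgfra and by 0.76 ± 0.34 for Pdgfrb, and larger by 0.75 ± 0.29 for Pdgfc. None of the 6 differences between ages was called by limma (adjusted p = 0.147 for Pdgfra, 0.326 for Pdgfrb and 0.263 for Pdgfc), where 0.275% of all genes were called; 3 of the 6 had an unadjusted p under 0.05, as did 1723 of the 13099 genes. Pdgfra was called without WT week 20 replicate 2, the WT array of highest Pdgfra signal at that age (-1.72, adjusted p = 0.0375).

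Within Tg liver, week 48 differed from week 20 in 3 of the 6 genes, where 5.99% of all genes were called higher and 9.76% lower; 3 of the 6 did not overlap, where 14.3% of genes did not. Pdgfc was higher at week 48 by 1.26 ± 0.20 log2 units, 2.40-fold (limma adjusted p = 0.000109), with no overlap between the ages (517.2 to 1218.8 at week 48 and 210 to 386.3 at week 20). Pdgfra was lower at week 48 by 0.94 log2 units (change -0.94 ± 0.29, limma adjusted p = 0.0257), again with no overlap, and Pdgfa was lower with a change of -0.54 ± 0.18 (adjusted p = 0.0396). The Pdgfra call was lost when Tg week 20 replicate 1 or 3 or Tg week 48 replicate 3 or 5 was left out (adjusted p up to 0.0643), and the Pdgfa call with 5 of 10 arrays left out in turn: Tg week 20 replicate 1, 4 or 5 and Tg week 48 replicate 3 or 4 (up to 0.121). With the mean of the probe sets, both calls were lost (Pdgfra -0.47, adjusted p = 0.218, and Pdgfa -0.14, adjusted p = 0.619). The Pdgfa call was also lost with no filter on dim probe sets (limma adjusted p = 0.0547) and with median centring (-0.42, adjusted p = 0.0814). Without the 5 arrays that carry other tissues' transcripts it was lost too (-0.41, adjusted p = 0.169). With the compared groups alone, Pdgfrb was called as lower at week 48 (-0.44, limma adjusted p = 0.0243).

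In WT liver 0 of the 6 genes were called between the ages by limma, where 6.88% of all genes were; 1 had an unadjusted p under 0.05. That gene was Pdgfc, 0.51 ± 0.21 log2 units higher at week 48 (adjusted p = 0.148), whose ages did not overlap, where 8.84% of genes did not (458.2 to 518.9 at week 48 and 258.9 to 411.7 at week 20). The second Pdgfc probe set stood further apart in WT liver, with 356.9 to 509.8 at week 48 and 148.4 to 257.9 at week 20. Its mean log2 values were 8.72 and 7.75. In peretinoin-fed Tg liver, Pdgfa alone was called, lower at week 48 with a change of -0.60 ± 0.18 (limma adjusted p = 0.0270), where 8.57% of genes were called lower. That call was lost without peretinoin-fed week 20 replicate 4 or 5 or week 48 replicate 2 or 3 (adjusted p up to 0.0903). Pdgfra and Pdgfrb were called as lower at week 48 without peretinoin-fed week 20 replicate 2 (adjusted p = 0.0364 and 0.0303) or week 48 replicate 4, when Pdgfd was called too. Pdgfrb was also called without peretinoin-fed week 48 replicate 3 (-0.75, limma adjusted p = 0.0411). With median centring Pdgfa was not called (adjusted p = 0.0943) and Pdgfc was, 0.60 higher at week 48 (adjusted p = 0.0328), and without the 5 arrays that carry other tissues' transcripts Pdgfa was not called (adjusted p = 0.101) and Pdgfb was, 0.61 higher (adjusted p = 0.0463).

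Tumours and Tg liver of week 48 overlapped in range for all 6 genes, where 1.98% of all genes did not overlap. Limma called 0 of the 6 genes and 0 of the 13099 (0%); 1075 genes, against 655 that chance gives, and 1 of the 6 had an unadjusted p under 0.05. That gene was Pdgfb, with 359.8, 367.7, 317, 491 and 314 in tumours, against 185.4 to 384.1 in Tg liver. The ranges overlapped, and the difference was 0.47 ± 0.22 log2 units with a 95% interval of 0.02 to 0.93 (limma adjusted p = 0.578).

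Pdgfra gave 2357.9, 1262.7, 1426.1, 2471.3 and 1145.7 in tumours, against 1787.5 to 2849.8 in Tg liver, a difference of -0.38 ± 0.29 with an interval of -0.97 to 0.22 (limma adjusted p = 0.826). Pdgfrb gave 1357.2 to 2337.1 in tumours and 1574.7 to 2222.9 in Tg liver, a difference of -0.06 ± 0.23 with an interval of -0.53 to 0.41 (limma adjusted p = 0.986). For Pdgfc, Pdgfa and Pdgfd the differences were 0.04, 0.14 and -0.09 log2 units. Set against WT liver, tumours were higher in 5 of the 6 genes, all but Pdgfa, where 17.9% of genes were called higher; Pdgfra stood 2.47 ± 0.31 log2 units above WT liver (limma adjusted p = 4.78e-07) and Pdgfrb 2.56 ± 0.24 (limma adjusted p = 5.09e-09). This comparison shares the WT arrays with that of Tg liver.

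Under peretinoin at week 20, Pdgfra and Pdgfb fell in Tg liver and the other 4 genes were not called, where 1.24% of all genes were called lower and 1.64% higher. Pdgfra gave 1199.1, 1008.9, 2027, 2467.7 and 2410.1 on peretinoin, against 3603.9 to 4857.3 on the basal diet, a change of -1.26 ± 0.29 log2 units (limma adjusted p = 0.0179). Pdgfb gave 131.3, 113.9, 113.7, 195.9 and 247.4 on peretinoin, against 261 to 345.1 on the basal diet, a change of -0.94 ± 0.22 (limma adjusted p = 0.0213). For both genes every peretinoin array lay below every basal diet array, where 5.02% of all genes did not overlap.

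Pdgfrb gave 1820.9, 1397.7, 2724.9, 2306.7 and 2315.9 on peretinoin at week 20, against 2172 to 2958.3 on the basal diet. The groups overlapped, and the difference was -0.33 ± 0.23 with a 95% interval of -0.80 to 0.14 (limma adjusted p = 0.452). Pdgfc differed by 0.53 ± 0.20 (adjusted p = 0.129), Pdgfd by -0.44 ± 0.19 (adjusted p = 0.177) and Pdgfa by 0.03 ± 0.18 (adjusted p = 0.942). The Pdgfra call was lost without Tg replicate 1 or 3 or peretinoin-fed replicate 1 or 2, and the Pdgfb call without Tg replicate 2 or 3 or peretinoin-fed replicate 1, 2 or 3 (adjusted p up to 0.0918), so that 0 to 2 genes were called. Without the 5 arrays that carry muscle or pancreatic transcripts 3 genes were called, Pdgfd being the added one (-0.61, adjusted p = 0.0436).

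Under peretinoin at week 48, Pdgfd fell and the other 5 genes were not called, where 0.573% of all genes were called lower and 0.153% higher. Pdgfd gave 96, 128.6, 122.1, 192.1 and 129.7 on peretinoin, against 231.4 to 371.6 on the basal diet and 74.8 to 132.8 in WT liver on the basal diet. All peretinoin arrays lay below all basal diet Tg arrays and overlapped WT liver, and the change against basal diet Tg liver was -1.10 ± 0.19 log2 units (limma adjusted p = 0.00280). In a fit of these 10 arrays alone the same change had an adjusted p of 0.0716.

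Pdgfra gave 758.4, 542.5, 1301.1, 1499.8 and 1235.5 on peretinoin at week 48, against 1787.5 to 2849.8 on the basal diet. The groups did not overlap, where 2.69% of genes did not, and the difference of -1.09 ± 0.29 missed the threshold (limma adjusted p = 0.0678). It was called without peretinoin-fed replicate 4 (-1.23, adjusted p = 0.0345), with the mean of the probe sets (-1.05, adjusted p = 0.0353) and with an offset of 64 (-1.05, adjusted p = 0.0494). Pdgfrb differed by -0.54 ± 0.23 (adjusted p = 0.275), Pdgfb by -0.44 ± 0.22 (0.384), Pdgfc by -0.34 ± 0.20 (0.469) and Pdgfa by -0.02 ± 0.18 (0.976).

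None of the 6 genes differed between the ages in its response to peretinoin by limma's test of that difference, where 0.679% of genes were called; 2 of the 6 and 1780 of all genes had an unadjusted p under 0.05. The nearest was Pdgfc, -0.87 ± 0.28 (adjusted p = 0.136), and the difference for Pdgfd was -0.66 ± 0.26 (adjusted p = 0.242). The fall of Pdgfd at week 48 and its missing call at week 20 are therefore not shown to differ.

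Peretinoin-fed Tg liver was still above WT liver in both receptors. At week 20, 4 of the 6 genes were higher than in WT liver, where 12.2% of genes were called higher: Pdgfra by 3.05 ± 0.29 log2 units (limma adjusted p = 5.39e-09), Pdgfrb by 3.06 ± 0.23 (6.99e-11), Pdgfd by 0.94 ± 0.19 (0.000579) and Pdgfa by 0.70 ± 0.18 (0.00754). Pdgfb differed by 0.05 ± 0.22 (adjusted p = 0.917), and the Pdgfa call was lost in a fit of these 10 arrays alone (adjusted p = 0.0678). Pdgfc differed by 0.43 ± 0.20 (limma adjusted p = 0.142) and was called as higher with the mean of its probe sets (0.67, adjusted p = 0.0350). At week 48, 2 of the 6 were higher, where 11.2% of genes were: Pdgfra by 1.76 ± 0.31 (0.000181) and Pdgfrb by 2.08 ± 0.24 (7.87e-07). Pdgfb (0.63, adjusted p = 0.0641) and Pdgfd (0.41, adjusted p = 0.155) missed the threshold and were called, making 4, without the 5 arrays that carry other tissues' transcripts; Pdgfb alone was added without peretinoin-fed replicate 1 (adjusted p = 0.0119).

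In order of mean signal, Pdgfra ran from Tg week 20 (4145 ± 540.1, SD, n = 5) through Tg week 48 (2173 ± 420, n = 5), peretinoin-fed Tg week 20 (1823 ± 681, n = 5), tumour (1733 ± 632, n = 5) and peretinoin-fed Tg week 48 (1067 ± 400.3, n = 5) to WT week 48 (287 ± 52.5, n = 4) and WT week 20 (215 ± 122, n = 5). Neighbours in that order did not overlap at 2 steps, between Tg week 20 and Tg week 48 and between peretinoin-fed Tg week 48 and WT week 48. For Pdgfrb the order was Tg week 20 (2611 ± 304), peretinoin-fed Tg week 20 (2113 ± 512), Tg week 48 (1932 ± 286), tumour (1866 ± 402), peretinoin-fed Tg week 48 (1349 ± 368), WT week 48 (298 ± 29.7) and WT week 20 (257 ± 116), and the step to WT week 48 was the one without overlap. Among the 4 ligands all neighbouring groups overlapped. Pdgfc was highest in Tg week 48 (798 ± 277) and lowest in Tg week 20 (316 ± 72.1), Pdgfb highest in tumour (369.9 ± 71.9) and lowest in WT week 48 (117 ± 21.7), Pdgfd highest in Tg week 48 (302 ± 57.9) and lowest in WT week 20 (89.4 ± 15.8), and Pdgfa highest in peretinoin-fed Tg week 20 (580 ± 202) and lowest in WT week 48 (mean 328).

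**Figure D3:**
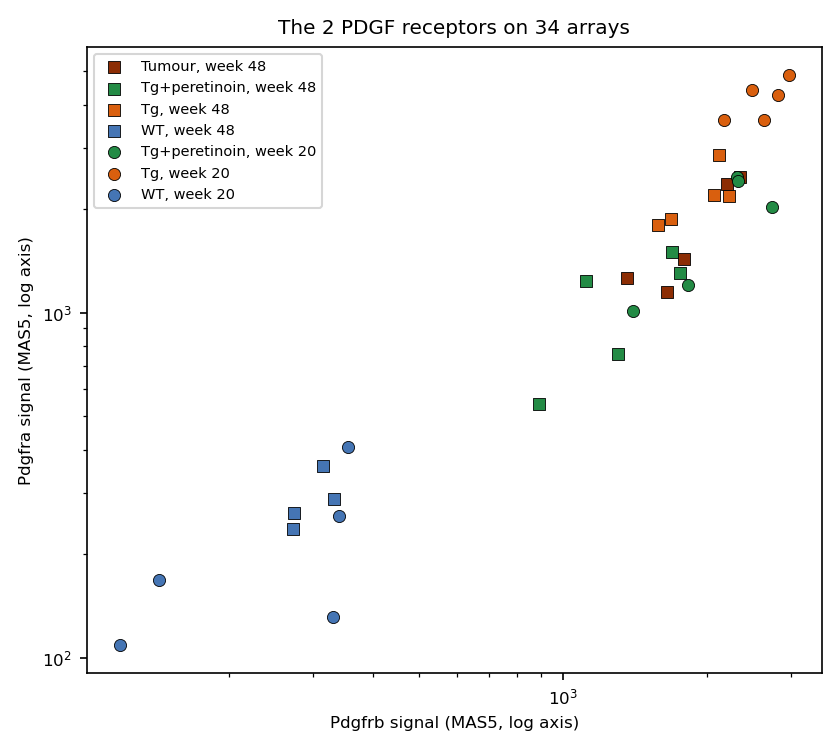
Pdgfra signal against Pdgfrb signal on each of the 34 arrays, both on log axes, with colours for the groups and squares for week 48 and circles for week 20. The 9 WT arrays sit at or below 407.9 on both axes, apart from the 25 others, and the 5 basal diet Tg arrays of week 20 are highest for Pdgfra.

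The receptor genes followed each other over the 34 arrays (r = 0.96, and 0.74 within groups), as a description of arrays that share their groups and liver pieces. Their distance, log2 Pdgfra minus log2 Pdgfrb on the same array, has no meaning as a level because the probe sets differ, but its shift between groups was compared over 5 pairs of groups with two-sided exact permutation tests. It was higher in Tg than in WT liver at week 20 by 0.92 (n = 5 each, exact p = 0.00794, the smallest possible, adjusted over the 5 tests 0.0198). Under peretinoin it was lower by 0.93 at week 20 (change -0.93, exact p = 0.00794, adjusted 0.0198) and by 0.54 at week 48 (change -0.54, exact p = 0.0238, adjusted 0.0397), relative to the basal diet. The week 48 call was lost with 8 of 10 arrays left out in turn (Tg replicates 1 to 5 and peretinoin-fed replicates 1 to 3, exact, adjusted p up to 0.106). It was also lost with the mean of the probe sets (-0.38, exact, adjusted p = 0.129) and without the 5 arrays that carry other tissues' transcripts (-0.50, adjusted p = 0.0571). The distance differed by 0.22 between Tg and WT liver at week 48 (exact p = 0.0873) and by -0.31 between tumour and Tg liver (exact p = 0.0556, adjusted 0.0694). With the mean of all probe sets of each receptor the week 20 transgene shift was 0.21 (exact, adjusted p = 0.659) and the week 48 shift -0.66 (exact, adjusted p = 0.0265), so its size and direction depend on the probe sets.

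The other probe sets followed the brightest in the receptors and in Pdgfc, and less in Pdgfa and Pdgfb. Over the 34 arrays the second Pdgfrb probe set (1417148_at) had r = 0.96 with the first (1436970_a_at), the second Pdgfc probe set (1449351_s_at) 0.94 with 1419123_a_at, and those of Pdgfra (1421916_at and 1438946_at) 0.87 and 0.65 with 1421917_at. The other probe sets of Pdgfd had 0.84 (1426319_at) and -0.22 (1446691_at) with 1456532_at, that of Pdgfa (1418711_at) 0.45 with 1449187_at, and that of Pdgfb (1450413_at) 0.40 with 1450414_at. Pdgfd 1446691_at and Pdgfra 1438946_at were dim, above the array median on 0 and 2 of 34 arrays, and did not pass the filter.

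In a fit of all 45037 probe sets, 9 of the 14 were higher in Tg than in WT liver at week 20, where 10.2% of probe sets were called, and 9 at week 48, where 9.5% were. All 5 receptor probe sets were among them at both ages. At week 20 the second probe set differed by -0.09 ± 0.21 for Pdgfa (limma adjusted p = 0.869) and 0.32 ± 0.22 for Pdgfb (adjusted p = 0.420), neither of them called. At week 48 the second Pdgfb probe set differed by 0.02 ± 0.23 (limma adjusted p = 0.973), so the Pdgfa and Pdgfb rises each rest on 1 of 2 probe sets.

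Both brighter Pdgfd probe sets fell under peretinoin at week 48, by 1.10 and 1.23 log2 units (changes -1.10 ± 0.19 and -1.23 ± 0.27, limma adjusted p = 0.00722 and 0.0420). These were 2 of 14 probe sets called, where 0.246% of all probe sets were. At week 20 the 2 called of 14, where 1.4% of all were, were the brightest of Pdgfra and Pdgfb. The second probe set of Pdgfra differed by -0.95 ± 0.29 (limma adjusted p = 0.0874) and that of Pdgfd by -1.03 ± 0.27 (adjusted p = 0.0505). That of Pdgfb gave overlapping ranges, 39.3 to 77.2 on peretinoin and 54.5 to 132.3 on the basal diet (mean log2 6.24 and 6.58). The Pdgfb fall at week 20 thus rests on 1 of 2 probe sets. Pdgfra 1421916_at differed between Tg week 48 and Tg week 20 by 0.00, against -0.94 for the brightest probe set, and in WT liver it was 1.43 ± 0.31 higher at week 48 than at week 20 (limma adjusted p = 0.00873). In WT liver 2 of the 14 probe sets were called higher at week 48 than at week 20, where 3.17% of all probe sets were called.

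**Figure D4:**
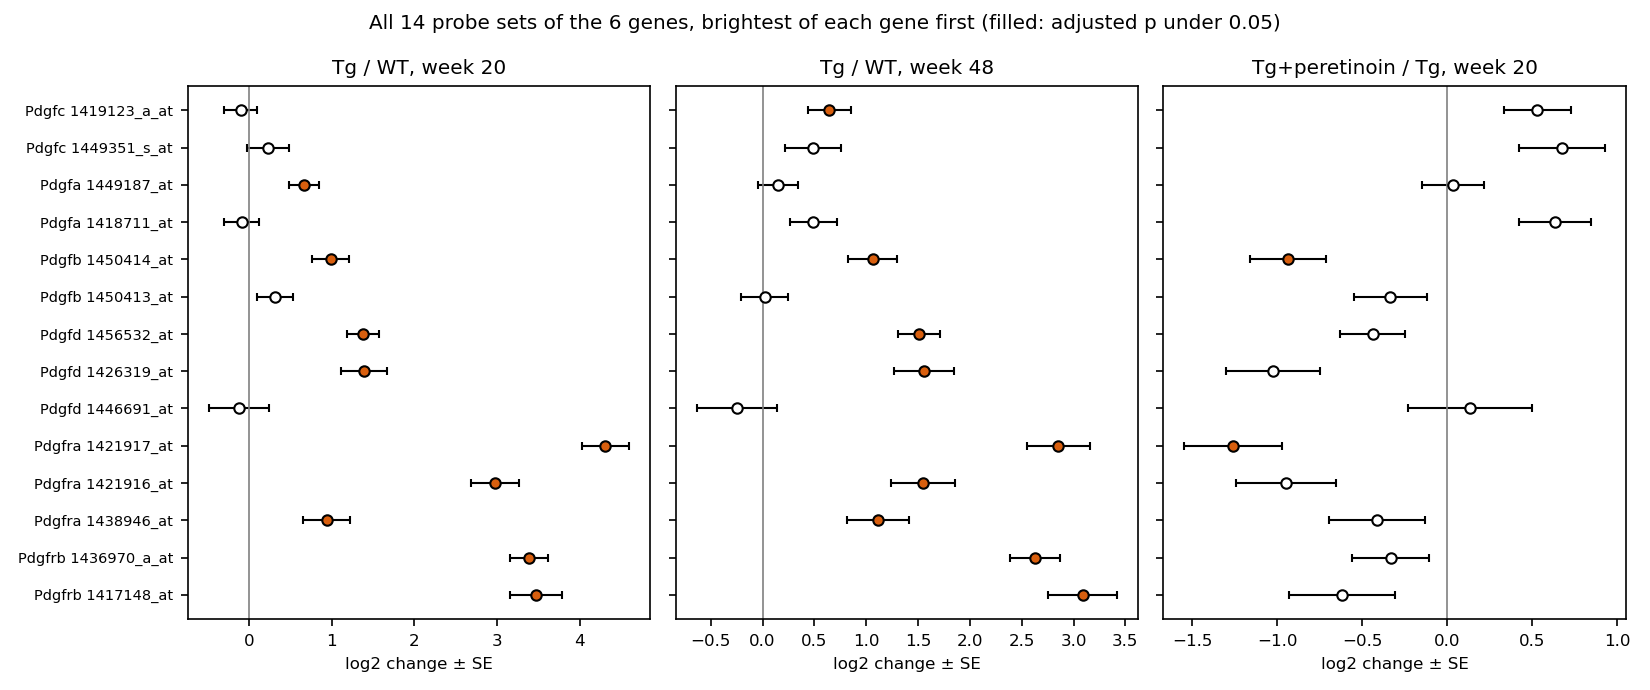
Log2 change ± SE of all 14 probe sets of the 6 genes, from a fit of all probe sets, for Tg over WT liver at both ages and for peretinoin over basal diet at week 20; filled points have a limma adjusted p under 0.05. All 5 receptor probe sets are filled in both Tg panels, whereas only 1 of the 2 probe sets of Pdgfb is.

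Around the receptors, 6 lists of PDGF pathway genes were followed, and genes beyond the 2 called genes of smallest p per list are named where a count is small, chosen after their values were seen. Counts are to be read against the 15.8% of all genes called higher and 7.87% called lower at week 20, and 14.2% and 6.58% at week 48. Of 8 genes that process the ligands or inhibit that step, 6 were measured. At week 20, 2 of the 6 rose in Tg liver and 0 fell (median change 0.25, against 0.06 for all genes). Plat, the tissue plasminogen activator that can cleave latent PDGF-C, averaged 530 ± 82.7 in Tg liver and 59.1 ± 32.3 in WT liver (SD, n = 5 each), a rise of 2.98 ± 0.28 log2 units (limma adjusted p = 1.11e-09). Furin, a convertase of the secretory pathway, rose by 0.50 ± 0.17 (adjusted p = 0.0296). At week 48 Plat rose by 2.83 ± 0.29 (limma adjusted p = 3.00e-08) and Plg, the plasminogen gene, fell with a change of -0.30 ± 0.09 (adjusted p = 0.0204), with a median of 0.18 against 0.04 for all genes.

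Of 8 co-receptors and ligand binding proteins, all measured, 2 rose and 1 fell at week 20 (median 0.39). Sparc, a matricellular protein that binds PDGF, rose by 1.58 ± 0.29 (limma adjusted p = 0.000121) and Lrp5 by 0.73 ± 0.25 (0.0283), while Nrp1, a neuropilin co-receptor, fell with a change of -0.67 ± 0.19 (0.00802). At week 48 Sparc alone was called, 1.30 ± 0.31 higher (limma adjusted p = 0.00229). Of 20 measured adaptors and enzymes that act next to the receptor (26 listed), 4 rose at week 20 and 0 fell (median 0.15), a share near that of all genes: the adaptor Nck2 by 1.14, the phosphatase Ptpn11 by 0.39, the kinase Src by 0.82 and the adaptor Shc1 by 0.34. At week 48, 1 rose, Nck2 by 1.25 ± 0.22 (limma adjusted p = 0.00012), and 3 fell, Pik3r1 (-0.49), Plcg1 (-0.46) and Sos1 (-0.45).

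Of 15 measured negative regulators (16 listed), 8 rose at week 20 and 0 fell (median 0.54 against 0.06 for all genes). Spry1, a Sprouty inhibitor of receptor tyrosine kinase signalling, averaged 1123 ± 191 in Tg liver and 279 ± 67.6 in WT liver (SD, n = 5 each), a rise of 1.97 ± 0.19 log2 units (limma adjusted p = 2.97e-09), and Cblb, a ubiquitin ligase of activated receptors, rose by 0.99 ± 0.17 (adjusted p = 5.89e-05). At week 48, 4 of 15 rose (median 0.27): Cblb by 1.05, the phosphatase Ptpn2 by 0.71, Spry1 by 0.74 and Spry2 by 0.64. Of 10 measured early response genes (12 listed), 6 rose at week 20 (median 0.93), Egr2 by 1.04 ± 0.31 (limma adjusted p = 0.0137) and Ier3 by 1.21 ± 0.37 (adjusted p = 0.0146) among them. At week 48, 2 rose (median 0.71), Ccnd1 (cyclin D1) by 1.70 ± 0.36 (limma adjusted p = 0.000798) and Ier3 by 1.76 ± 0.39 (adjusted p = 0.00120).

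Among 6 measured genes of the related receptor kinases and their ligands (7 listed), 2 rose at each age (medians 0.42 at week 20 and 0.45 at week 48). They were the ligand genes Csf1, by 1.5 ± 0.26 at week 20 (limma adjusted p = 5.27e-05) and 1.14 ± 0.27 at week 48 (adjusted p = 0.00265), and Kitl, by 0.79 ± 0.15 (0.000299) and 0.51 ± 0.16 (0.0246). Between tumour and Tg liver 0 genes of the 6 lists were called by limma. Under peretinoin 0 were called at week 48, where 0.573% of all genes were called lower and 0.153% higher. At week 20, 1 was called, where 1.24% of all genes were called lower and 1.64% higher. That gene was Spry1, which averaged 617 ± 129 on peretinoin and 1123 ± 191 on the basal diet (SD, n = 5 each), a change of -0.86 ± 0.19 (limma adjusted p = 0.0158).

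Markers of several cell types that can carry PDGF receptors were higher in Tg than in WT liver in part of each list. The summed signal of 9 measured markers of quiescent stellate cells was 20637 to 23875 in Tg liver at week 20, against 5738 to 16729 in WT liver, and 5 of the 9 rose and 0 fell (median 0.87). At week 48 it was 17360 to 23674 in Tg liver, against 9935 to 10814 in WT liver, and 6 of the 9 rose. The sum of 7 myofibroblast markers was 4802 to 6654 in Tg liver at week 20, against 1202 to 2589 in WT liver, with 5 genes called higher and 1 lower, and at week 48 2751 to 5552 in Tg liver, against 1340 to 4707 in WT liver, with 3 higher and 1 lower.

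The 6 portal fibroblast markers, of which 5 passed the filter and were tested, summed to 2063 to 2350 in Tg liver, against 551 to 679 in WT liver, at week 20 (4 of 5 higher) and to 1300 to 2353 in Tg liver, against 487 to 1130 in WT liver, at week 48 (4 of 5 higher). The 7 markers of vascular smooth muscle and pericytes, of which 6 were tested, summed to 7288 to 9103 in Tg liver, against 1991 to 5797 in WT liver, at week 20 (3 of 6 higher) and to 6520 to 8616 in Tg liver, against 3620 to 4605 in WT liver, at week 48 (2 of 6 higher). None of the 7 endothelial markers was called at either age (sums of 3218 to 3822 in Tg liver and 2388 to 4050 in WT liver at week 20). Of 7 hepatocyte markers 3 fell at week 20 and 4 at week 48. Their part in the PDGF results was not tested.

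Pdgfb is also a product of platelets, endothelium and macrophages. Of 5 tested platelet markers Pf4 alone rose at week 20 (1.96 ± 0.16, limma adjusted p = 1.10e-10), and at week 48 Pf4 rose and Gp1bb fell. The 6 measured platelet markers summed to 1558 to 2390 in Tg liver, against 807 to 1175 in WT liver, at week 20. Gp9, a platelet receptor gene, was near the floor of the array, 3.5 to 5.4 in Tg liver and 7.7 to 10.8 in WT liver at week 20. Of 8 macrophage markers, with sums of 7246 to 9655 in Tg liver and 9383 to 12553 in WT liver at week 20, 1 rose and 3 fell at that age, and 2 rose and 1 fell at week 48. Their part in the Pdgfb result was not tested. Muscle and pancreatic markers gave 0 calls in these comparisons.

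Under peretinoin the stellate cell sum was 17931 to 26824, against 20637 to 23875 on the basal diet, at week 20, when 0 of the 9 markers were called. At week 48 it was 10636 to 21670 on peretinoin, against 17360 to 23674 on the basal diet. Of the 9 markers 1 was called at week 48, where 0.573% of all genes were called lower. That marker was Cygb, with a change of -0.84 ± 0.21 (limma adjusted p = 0.0480). Among the other marker lists 0 genes were called under peretinoin at either age or between tumour and Tg liver. The part of these cells in the changes of Pdgfra, Pdgfb and Pdgfd was not tested.

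The genes whose log2 signal was most like that of each member over the 34 arrays are given as a description, since arrays share their groups. For Pdgfra they were the collagen VI genes Col6a1 (r = 0.97, and 0.79 within groups) and Col6a3 (0.96 and 0.66) and Lhfp (0.96 and 0.72). For Pdgfrb they were the integrin gene Itga8 (0.98 and 0.76), the transcription factor gene Tbx20 (0.97 and 0.74) and Col6a1 (0.97 and 0.83). Both receptors thus had Col6a1 among their 3 nearest genes, which averaged 2291 ± 362 in Tg liver and 177 ± 79.3 in WT liver at week 20 (SD, n = 5 each).

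For Pdgfd the nearest were Olfml3 (0.91 and 0.58), the transcription factor gene Tcf21 (0.91 and 0.59) and Capn6 (0.90 and 0.34). For Pdgfb they were the integrin gene Itga6 (0.87 and 0.72), the endothelial sialomucin gene Emcn (0.86 and 0.71) and Ms4a7 (0.86 and 0.57). Pdgfa was nearest to the transcription factor gene Hand2 (0.77 and 0.73), Ints6l (0.77 and 0.53) and Tmem47 (0.77 and 0.60). Pdgfc stood apart, nearest to Lgalsl (0.82 and 0.33), the clock gene Npas2 (0.81 and 0.46) and the ubiquitin ligase gene Nedd4l (0.79 and 0.42), and its r with the other 5 members lay between -0.20 and 0.36.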

How the data were processed

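Values are those deposited by the authors: MAS5 signal intensities on a linear scale. MAS5 is named, without a version, in the submitters' processing notes. The 2% trimmed mean of every array lay between 500.003 and 500.004. The platform's table gave 34945 probe sets 1 symbol, 932 several and 9160 none. Intensities were taken as log2(signal + 16), the 60% of non-control probe sets with the highest mean were kept, and the brightest kept probe set stood for each gene. All 7 groups entered 1 model in limma 3.58.1 (R 4.3.3), fitted by lmFit and moderated by eBayes with a trend on intensity, for 13 comparisons, with two-sided tests and p-values adjusted by Benjamini-Hochberg over 13099 genes. Precision is limited by how many arrays a group has. No array was left out, and no 2 arrays had identical values (highest correlation 0.977).

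The members and the gene lists were chosen with earlier results of these data known. Named genes are the 6 members, for each the 3 genes of highest correlation over 34 arrays, and of each of 6 pathway lists the 2 called genes of smallest p in each of 5 comparisons; others are named where a count is small. The replicate numbers were not used to pair the samples in the main fit. Of 51 pairs of arrays with the same number, 17 had deviations from their group means that correlated above 0.1. In none of the comparisons did all pairs exceed 0.1. Between tumour and Tg liver 4 of 5 pairs did, with all 5 from 0.077 to 0.29, and between Tg and WT liver at week 48 3 of 4. These correlations cannot tell whether samples of the same number belong together. Alternatives were offsets of 1 and 64, the upper 40% of probe sets or no filter, no intensity trend, quantile normalization, median centring, the mean of a gene's probe sets, the compared groups alone, the replicate number as a block, each replicate left out, and the 5 arrays with other tissues' transcripts left out. Simulated arrays had independent normal noise for each gene, with a small set of genes raised. Of genes raised 2-fold, 68.7% were called in the week 20 transgene comparison, 82.1% in the tumour comparison and 80.6% in the week 20 peretinoin comparison. Correlation between genes and the number of genes that changed in the data were not simulated, so these shares are not the power reached in the data. Promoter sequences are from RefSeq, GRCm38.p6; the build of the array's probes was not used.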

Additional observations from a re-analysis of the deposited data

Results flagged for a closer look

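Of 42 sets of arrays examined (6 genes in 7 groups), 1 held an array far from the rest of its group. Pdgfc in peretinoin-fed Tg liver at week 48 gave 506.4 in replicate 3, against 603 to 646.5 in the other 4 arrays of the group. On the log2 scale used in the fits, the gap to the nearest array was 0.714 of the group's range, where 0.71 is the limit of Dixon's test for 5 arrays. On the linear signals given here the gap falls below that limit, so the flag depends on the scale. Chance alone marks about 1 in 20 such groups.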

How the results depend on the processing

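Over the alternative settings, the number of members called stayed within 1.5 times in 130 recounts and moved in 13. Under peretinoin at week 48, 1 member was called; 2 were with an offset of 64 or the mean of the probe sets, and 0 with the compared groups alone. In peretinoin-fed Tg liver between the ages the count of 1 became 2 with an offset of 64, the upper 40% of probe sets or quantile normalization, and 0 with the mean of the probe sets or the compared groups alone; with median centring and without the 5 arrays it stayed 1 with another gene called. In peretinoin-fed Tg against WT liver at week 48 the count of 2 became 4 with quantile normalization, median centring or without the 5 arrays carrying other tissues' transcripts. With the mean of the probe sets 1 was called in each age comparison, in WT liver (0 before) and in Tg liver (3 before). With each array left out in turn the counts were 4 to 5 for Tg over WT liver at week 48, 0 to 2 for peretinoin at week 20, 1 to 2 at week 48, 1 to 3 and 0 to 4 for week 48 over week 20 in Tg and peretinoin-fed Tg liver, 2 to 3 for peretinoin-fed Tg over WT liver at week 48 and 0 to 1 for the transgene effect between ages.

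Changes that were not called turned their sign in 20 results. Of these, 3 were over 0.3 log2 units in size with the brightest probe set and turned with the mean of the probe sets: Pdgfa in the transgene effect between ages (-0.52), Pdgfd in peretinoin-fed Tg liver between ages (-0.45) and Pdgfb in WT liver between ages (-0.32). For Pdgfa under peretinoin at week 48 the change was 0.048 with quantile normalization, 0.075 with median centring and 0.016 with the mean of the probe sets, and at week 20 -0.068 without the 5 arrays. For Pdgfb in peretinoin-fed Tg over WT liver at week 20 it was -0.12, -0.070 and -0.11 with quantile normalization, median centring and without the 5 arrays. In WT liver between the ages Pdgfd was -0.0035 with median centring and -0.061 without the 5 arrays, Pdgfb 0.11 with the mean of the probe sets and Pdgfa 0.0034 without the 5 arrays. Pdgfc in Tg over WT liver at week 20 was 0.065 with the mean of the probe sets and 0.027 without the 5 arrays, and in tumour over Tg liver -0.057 without them. The mean of the probe sets gave 0.0027 for Pdgfrb in tumour over Tg liver, 0.031 for Pdgfd in peretinoin-fed Tg liver between the ages, and 0.031 for Pdgfa and -0.11 for Pdgfb in the transgene effect between ages; the last was -0.068 without the 5 arrays. The peretinoin effect of Pdgfa between ages was 0.030 with median centring. With each array left out in turn, ranges spanned 0 for Pdgfc (-0.19 to 0.027) in Tg over WT liver at week 20; for Pdgfc (-0.10 to 0.21), Pdgfd (-0.22 to 0.017) and Pdgfrb (-0.15 to 0.043) in tumour over Tg liver; for Pdgfa under peretinoin (-0.10 to 0.23 at week 20, -0.12 to 0.059 at week 48); for Pdgfa (-0.12 to 0.046) and Pdgfd (-0.061 to 0.18) in WT liver between ages; for Pdgfb in peretinoin-fed Tg over WT liver at week 20 (-0.11 to 0.14) and in the transgene effect (-0.060 to 0.19); and for Pdgfa (-0.25 to 0.078) and Pdgfra (-0.017 to 0.39) in the peretinoin effect. The cause was not tested.

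The distance between the receptors was 0.21, -0.66, -0.31 and -0.38 with the mean of the probe sets (Tg over WT at weeks 20 and 48, tumour over Tg, peretinoin at week 48), and 0.35 and -0.50 without the 5 arrays (Tg over WT and peretinoin at week 48). With each array left out it ranged from 0.68 to 1.04 and from 0.16 to 0.31 for Tg over WT at weeks 20 and 48, from -0.38 to -0.22 for tumour over Tg, and from -1.02 to -0.85 and from -0.68 to -0.45 for peretinoin at weeks 20 and 48. With the replicate number as a block (pairing by number), the distances 0.92, -0.93 and -0.54 had an adjusted exact p of 0.104 each, where 5 pairs cannot reach the threshold. The block changed 0 member calls in limma, and the genes called for peretinoin at week 20 were 426 with it and 378 without.

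Counts over all genes moved by more than 1.5 times as follows. Peretinoin at week 20 called 163 genes with median centring and 1071 without the 5 arrays (378 otherwise), and 51 to 879 with 1 array left out. Peretinoin at week 48 called 4 with the compared groups alone (95 otherwise), and 26 to 180 with 1 array left out. Fitting the compared groups alone called 302 against 901 genes in WT liver between ages, 573 against 1762 in peretinoin-fed Tg liver between ages, 1040 against 2204 in peretinoin-fed Tg over WT liver at week 48 and 27 against 89 for the peretinoin effect, which reached 222 without the 5 arrays. The transgene effect called 12 to 60 genes against 36, and tumour over Tg liver 3 without the 5 arrays against 0. With 1 array left out, the counts were 518 to 854 in WT liver between ages and 1125 to 2236 in peretinoin-fed Tg liver between ages. They were then 11 to 215 for the peretinoin effect, 12 to 66 for the transgene effect and 0 to 6 for tumour over Tg liver. Median centring moved the median of all genes by up to 0.21 log2 units.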
